A study of Mus musculus with 18 samples.

Results

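The interaction of Scap loss with birth was examined on 12 of the 18 whole lung arrays of the series, namely all arrays of the Scap mouse line at E18.5 and at PN1, the day of birth. The 12 arrays form 4 groups of 3, and the interaction of a gene is its ScapΔ/Δ minus control difference at PN1 minus the same difference at E18.5, on the log2 scale. ScapΔ/Δ mice carried Scap flox/flox with the transgenes SP-C-rtTA and (tetO)7CMV-Cre, in which the surfactant protein C promoter drives the doxycycline-dependent activator in respiratory epithelium. Controls were Scap flox/flox littermates without rtTA or without Cre. Dams of all groups received doxycycline chow early in gestation, and the chow was withdrawn well before the lungs were taken. The colony was of mixed strain background, E18.5 pups were delivered by Cesarean section and PN1 pups were taken after birth. Because RNA came from whole lung, transcripts of unrecombined cells were measured together with those of the epithelium. The arrays are named here by their labels, C7 to C9 (E18.5 control), KO10 to KO12 (E18.5 ScapΔ/Δ), C13 to C15 (PN1 control) and KO16 to KO18 (PN1 ScapΔ/Δ). Members of the comparison are therefore arrays, and genes are described as growing when both effects had the same sign and the PN1 effect was larger, as shrinking when it was smaller, and as reversing when the signs differed.

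SCAP escorts the sterol regulatory element binding proteins (SREBPs) from the endoplasmic reticulum to the Golgi, where they are cleaved to active transcription factors, and the INSIG proteins retain SCAP in the endoplasmic reticulum when sterols are plentiful. SREBP2 mainly activates genes of cholesterol synthesis and uptake, and SREBP1 those of fatty acid synthesis. Around birth the type II cells of the lung make and secrete surfactant lipid, and the lung changes from a fluid-filled to an air-breathing organ.

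Before any gene is described, a property of the PN1 ScapΔ/Δ group has to be given. KO17 and KO18 stood apart from the other arrays. Their medians over all probe sets were 7.67 and 7.70, against 7.42 to 7.50 on the other arrays of the series, and their interquartile ranges were 2.98 and 2.98, against 3.42 to 3.61. Over all probe sets Pearson's r was 0.9944 between KO17 and KO18 and 0.9317 to 0.9538 between these 2 and the other Scap arrays, for which it was 0.9845 to 0.9975. Against the PN1 control mean, the medians of KO17 and KO18 were 0.11 and 0.13 in the dimmest of 4 equal groups of probe sets and -0.29 and -0.31 in the brightest, whereas KO16 lay between -0.06 and 0.03 in all 4. The median within-group SD was accordingly 0.249 for PN1 ScapΔ/Δ, against 0.0568, 0.108 and 0.102 for E18.5 control, E18.5 ScapΔ/Δ and PN1 control. KO16 also differed from KO17 and KO18 in sex-linked transcripts. Xist, the RNA of the inactive X chromosome, lay at 10.61 to 11.71 on C9, KO10, KO11, C13 and KO16 and at 5.84 to 6.53 on the other 7 Scap arrays, and Eif2s3y, Kdm5d and Uty of the Y chromosome were the reverse, with Uty at 4.48 to 4.85 and 9.08 to 9.72. Each PN1 group thus had 1 Xist-high array of 3, the E18.5 controls 1 and the E18.5 ScapΔ/Δ group 2. Adding this split as a covariate left 0 probe sets called. Since KO17 and KO18 are 2 of the 3 arrays that carry the PN1 effect, interactions were computed with all 12 arrays, without KO16, and from KO16 alone (without KO17 and KO18), and many genes are given with more than 1 of these. The part of the array-wide shift in any single value was not tested.

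With all 12 arrays, no interaction passed an adjusted p under 0.05 among 22800 probe sets (0% called, lowest adjusted p 0.265, limma). At an unadjusted p under 0.05 there were 1880 with a higher and 2301 with a lower PN1 than E18.5 effect. In size, 796 probe sets had an interaction of 1 or more and 398 of -1 or less. The median interaction over all probe sets was -0.03. It went with level, from 0.15 in the dimmest of the 4 level groups to -0.20 in the brightest. Without KO16 these medians were 0.22 and -0.31, and from KO16 alone 0.02 and 0.02. Gene lists are set below against all genes without matching for level, and the part of this level dependence in the list values was not tested. Without KO16 the same fit called 5687 probe sets higher (24.9%) and 7609 lower (33.4%), with a median interaction of -0.06. Without KO17 and KO18 it called 0 again (0% called), with 359 higher and 370 lower at an unadjusted p under 0.05, and the interaction reached 1 in size in 4 and 15 probe sets. Leaving out any other single array gave 0 calls. Of the 796 probe sets with an interaction of 1 or more, 2 kept that size in KO16 alone, 103 had at least 0.5 in that array and 185 lay at 0 or on the other side. Of the 398 at -1 or less, 8 kept that size in KO16 alone, 50 had at least 0.5 downward and 76 lay at 0 or on the other side.

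By the signs of the 2 effects, 6553 probe sets reversed from lower to higher, 6457 reversed from higher to lower, 1894 grew higher, 4577 grew lower and 3319 shrank. These classes count signs and not tests. A stricter description is that the 3 ScapΔ/Δ arrays did not overlap the 3 controls at either age. By it 96 probe sets reversed to higher (0.421%) and 109 reversed to lower (0.478%), of which 41 and 95 carried 1 gene symbol. Of the 22800 probe sets, 859 (3.77%) were lower at both ages and 250 were higher at both. In the reversing sets the smaller of the 2 effects had a median size of 0.17 and 0.16 and reached at most 0.61 and 0.60.

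**Figure D1:**
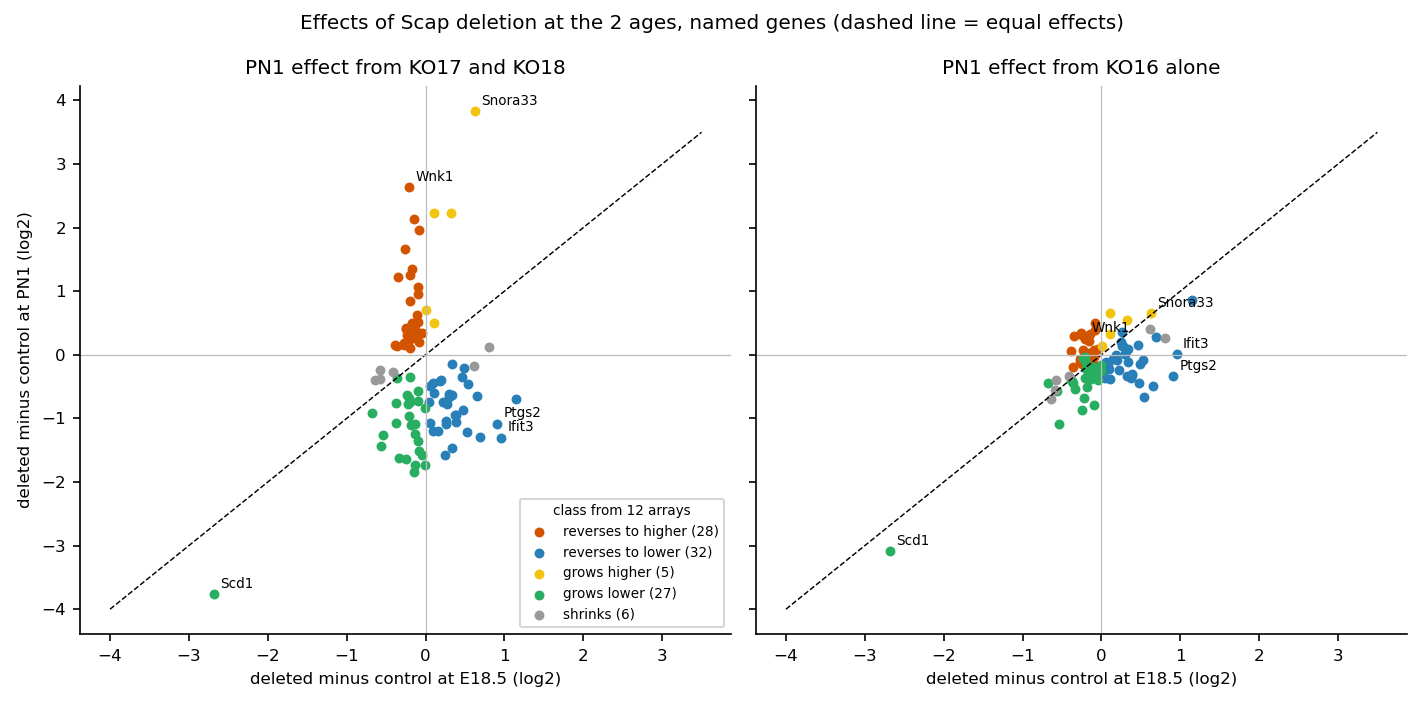
Effect of Scap deletion at E18.5 (horizontal axis, log2) against the effect at PN1 (vertical axis, log2) for the named genes, 1 point per gene, coloured by the class they had with 12 arrays. With KO17 and KO18 as the PN1 ScapΔ/Δ arrays (left) points spread from -3.76 for Scd1 to 3.84 for Snora33, and with KO16 alone (right) most lie nearer to the dashed line of equal effects.

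Genes of sterol and fatty acid synthesis, the known SREBP targets, mostly had an interaction below 0. The sequence before the Hmgcs1 start is shown because this gene is a classical sterol-regulated enzyme and the only cholesterol synthesis gene whose 250 bases before the start held the core of the sterol regulatory element. It was searched as TCACNCCAC on both strands, in RefSeq promoters of build GRCm38.p6, chr13:119690174-119690262, plus strand, with the motif in capitals 137 bases before the start.
Hmgcs1: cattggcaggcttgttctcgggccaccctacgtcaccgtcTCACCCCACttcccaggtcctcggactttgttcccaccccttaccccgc
The motif was held by 1 of 15 cholesterol synthesis genes with a window (6.67%), by 1 of 19 fatty acid synthesis genes (5.26%) and by 331 of all 27025 genes (1.22%). With 1 gene in each list, these counts cannot tell whether the letters mark the lists.

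Hmgcs1, the cytosolic HMG-CoA synthase, lay at 10.30, 10.48 and 10.43 in E18.5 controls, at 10.07, 9.92 and 10.08 in E18.5 ScapΔ/Δ, at 10.90, 10.97 and 10.95 in PN1 controls and at 10.55, 9.86 and 9.88 on KO16, KO17 and KO18. The groups did not overlap at either age, and KO16 lay between the PN1 controls and the other PN1 ScapΔ/Δ arrays. The effect was -0.38 at E18.5 and -0.84 at PN1, and the interaction was -0.46 ± 0.22 (SE, adjusted p = 0.265). It was -0.69 ± 0.10 (adjusted p = 0.000217) without KO16 and -0.02 from KO16 alone, so that the growth of the Hmgcs1 effect came from KO17 and KO18. Read as the change from E18.5 to PN1, Hmgcs1 was 0.54 higher in PN1 than in E18.5 controls and 0.07 higher in ScapΔ/Δ lungs.

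Sqle, squalene epoxidase, lay at 9.48, 9.75 and 9.57 in E18.5 controls, at 9.28, 9.02 and 8.82 in E18.5 ScapΔ/Δ, at 10.59, 10.76 and 10.78 in PN1 controls and at 10.14, 9.36 and 9.20 in PN1 ScapΔ/Δ. All ScapΔ/Δ arrays lay below the controls of their age, KO16 least. The interaction of Sqle was -0.59 ± 0.30 (adjusted p = 0.266), -0.88 ± 0.17 (adjusted p = 0.00159) without KO16 and -0.01 from KO16 alone. Msmo1, the sterol C4-methyl oxidase, grew from -0.09 to -1.11, and Sc5d, which desaturates the sterol ring, from -0.09 to -0.48. The interactions of these genes from KO16 alone were -0.22 for Msmo1 and -0.21 for Sc5d, against -1.43 and -0.48 without KO16. Of 20 cholesterol synthesis genes, 17 were kept, 0 were called with 12 arrays and 16 had an interaction below 0, with a median of -0.56, where all 15070 genes with 1 symbol had a median of -0.09 and 59.5% below 0. Without KO16 the median was -0.77 and 14 of 17 (82.4%) were called lower, against 38.6% of all genes, and from KO16 alone the median was -0.01. Averaged over the list and set against the mean of the same-age controls, E18.5 ScapΔ/Δ arrays lay at -0.30, -0.27 and -0.28, KO16 at -0.30, and KO17 and KO18 at -1.05 and -1.09. On this list KO16 therefore showed a loss of the size seen at E18.5. These are whole lung values, in which fewer cells of a type and less RNA per cell cannot be told apart.

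Scd2, a stearoyl-CoA desaturase that makes monounsaturated fatty acids, kept most of its interaction from KO16 alone. It lay at 12.91, 12.91 and 12.91 in E18.5 controls, at 12.53, 12.31 and 12.27 in E18.5 ScapΔ/Δ, at 12.47, 12.17 and 12.26 in PN1 controls and at 11.22, 11.06 and 11.005 in PN1 ScapΔ/Δ. Each of KO16, KO17 and KO18 was about 1 log2 unit below the lowest PN1 control. The Scd2 effect was -0.54 at E18.5 and -1.21 at PN1, with an interaction of -0.67 ± 0.15 (adjusted p = 0.265), -0.73 ± 0.13 (adjusted p = 0.000992) without KO16 and -0.54 from KO16 alone. Its paralog Scd1 had the largest effects of the named genes that were lower at both ages, -2.68 at E18.5 and -3.54 at PN1, with 9.45, 9.30 and 10.81 on KO10, KO11 and KO12 and 8.45, 8.004 and 7.55 on KO16, KO17 and KO18 against controls at 11.23 to 12.56. The E18.5 values of Scd1 were widely spread, its interaction was -0.86 ± 0.51 (adjusted p = 0.29), and the call was also missed without KO16 (-1.08, adjusted p = 0.0864), with -0.41 from KO16 alone. Mid1ip1, which stimulates acetyl-CoA carboxylase, grew from -0.34 to -1.26 and was -0.20 from KO16 alone. Acly, the ATP citrate lyase, grew from -0.20 to -0.57 with -0.03 from KO16 alone. Fasn, fatty acid synthase, did not grow, at -0.64 and -0.49 (interaction 0.15 ± 0.23, adjusted p = 0.65), and this small value was below 0 under median centring (-0.02). Of the fatty acid synthesis list 20 of 22 genes were kept and 15 had an interaction below 0, with a median of -0.34, -0.49 without KO16 (12 called lower, 60%, against 38.6% of all genes) and -0.05 from KO16 alone.

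**Figure D2:**
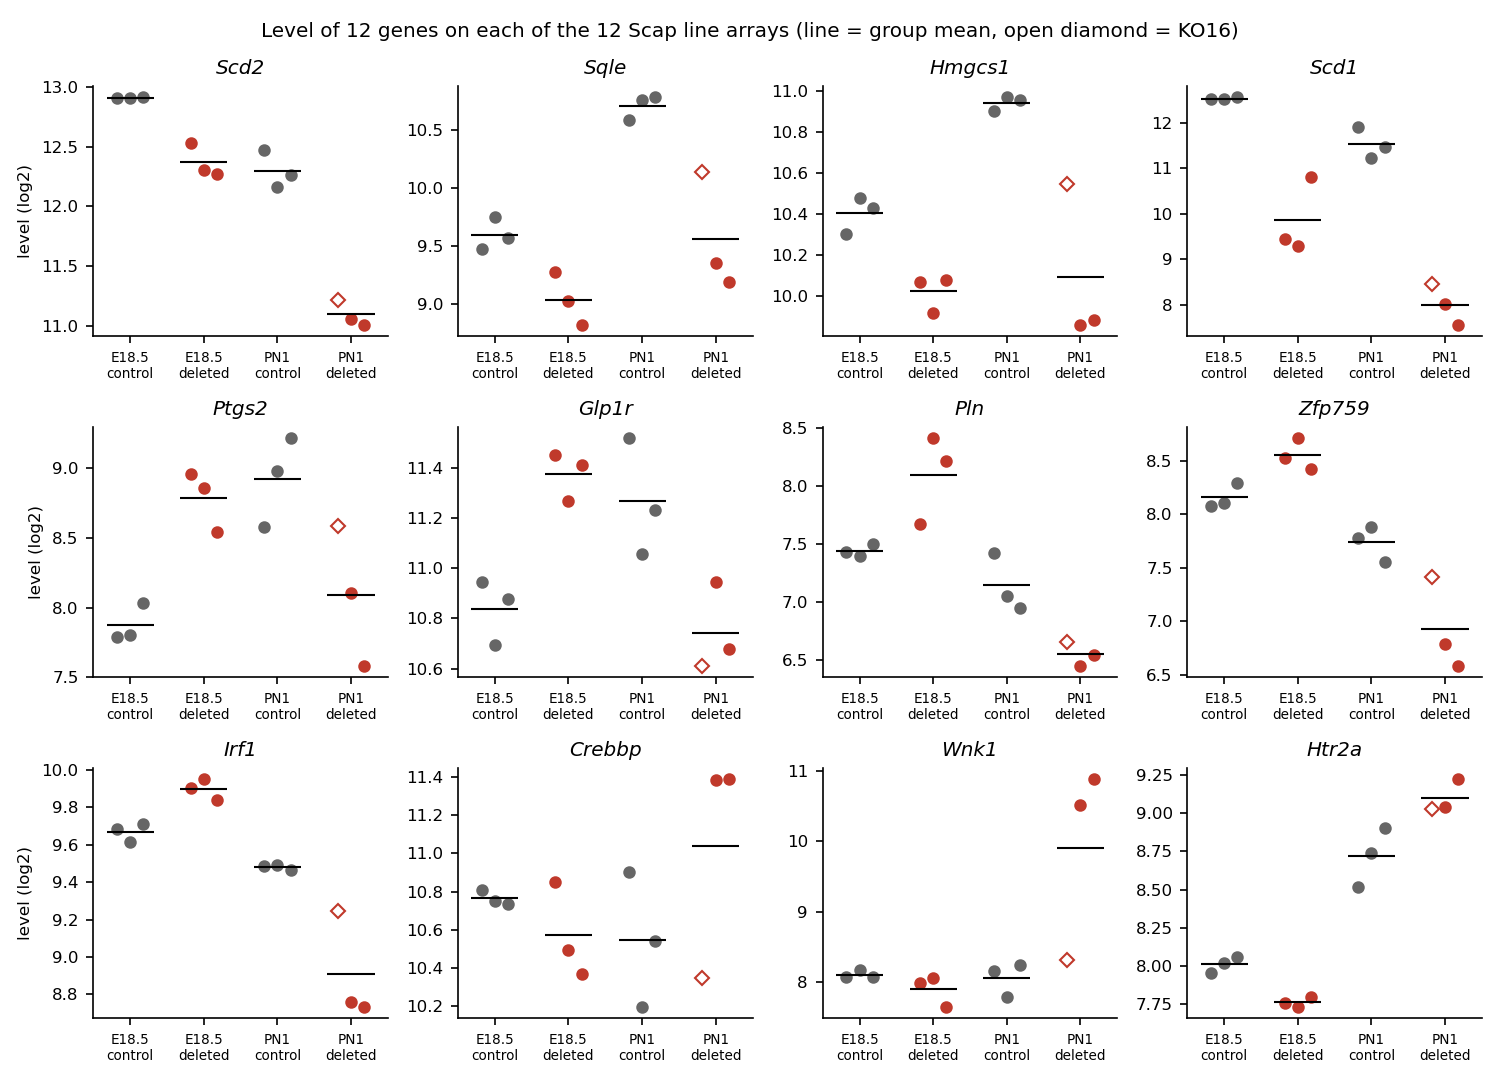
Level (log2) of 12 genes on each of the 12 arrays, grouped by age and genotype, with the group mean as a line and KO16 as an open diamond. For Sqle, Hmgcs1, Crebbp and Wnk1 the open diamond lies apart from KO17 and KO18, whereas for Scd2, Glp1r, Pln and Htr2a all 3 PN1 ScapΔ/Δ arrays lie on 1 side of the controls and near each other.

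Of 7 genes of the SREBP machinery, 5 were below the controls on every array at both ages, against 726 of all 15070 genes. By the signs and sizes of the effects 4 of the 7 shrank, 2 grew lower and 1 reversed. Scap lay at 9.75, 9.71 and 9.71 in E18.5 controls, 9.47, 9.25 and 9.22 in E18.5 ScapΔ/Δ, 9.91, 9.76 and 9.92 in PN1 controls and 9.54, 9.53 and 9.65 in PN1 ScapΔ/Δ. The targeted gene was thus below all controls on each ScapΔ/Δ array, by 0.41 at E18.5 and 0.29 at PN1, with an interaction of 0.12 ± 0.12 (adjusted p = 0.49), of -0.05 after median centring. Srebf1 (-0.58 and -0.30), Srebf2 (-0.58 and -0.43) and Insig1 (-0.68 and -0.76) had interactions of 0.28 ± 0.14, 0.15 ± 0.15 and -0.08 ± 0.18. The sign of Srebf2 turned under median centring (-0.02) and that of Insig1 from KO16 alone (0.23). Insig2, the second INSIG isoform, was the kept member that reversed, at 10.17, 10.12 and 10.17 in E18.5 controls, 10.38, 10.49 and 10.48 in E18.5 ScapΔ/Δ, 10.11, 10.26 and 10.21 in PN1 controls and 10.20, 9.53 and 9.62 in PN1 ScapΔ/Δ. It was above the controls on each E18.5 ScapΔ/Δ array and below them on KO17 and KO18 but not on KO16. Its interaction was -0.70 ± 0.21 (adjusted p = 0.265), -0.91 without KO16 (adjusted p = 2.64e-05) and -0.29 from KO16 alone. Stard4, a sterol transfer protein, grew lower from -0.19 to -0.90, with an interaction of -0.92 without KO16 and -0.31 from KO16 alone. These 7 were kept of 10 genes listed, and their median interaction was 0.05.

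Surfactant and type II cell genes also mostly had an interaction below 0, and the list median was nearer to 0 from KO16 alone. Fabp5, a fatty acid binding protein, lay at 11.81, 11.76 and 11.83 in E18.5 controls, 11.41, 11.69 and 11.85 in E18.5 ScapΔ/Δ, 11.37, 11.69 and 11.61 in PN1 controls and 11.26, 9.70 and 9.73 in PN1 ScapΔ/Δ. KO17 and KO18 were lower than every other array, while KO16 was close to the lowest control. The interaction of Fabp5 was -1.18 ± 0.48 (adjusted p = 0.265), -1.69 (adjusted p = 2.3e-05) without KO16 and -0.15 from KO16 alone. Cebpa, a transcription factor of lipid synthesis and epithelial maturation, grew from -0.13 to -0.83, with -0.95 without KO16 and -0.20 from KO16 alone. Sftpb, the surfactant protein required for breathing at birth, grew from -0.20 to -0.57, and all 3 PN1 ScapΔ/Δ arrays (12.67, 12.35 and 12.38) were below the PN1 controls (mean 13.04 ± 0.055, SD, n = 3). Its interaction was -0.37 ± 0.13 (adjusted p = 0.265), -0.47 without KO16 and -0.16 from KO16 alone. Lpcat1, which remodels phosphatidylcholine for surfactant, grew from -0.38 to -0.65, and from KO16 alone the interaction was -0.03. Pcyt1a, the rate-limiting enzyme of phosphatidylcholine synthesis, grew from -0.21 to -0.65, but from KO16 alone its interaction had the other sign (0.18). Abca3, which pumps lipid into lamellar bodies, had equal effects of -0.36 and -0.39 (interaction -0.03 ± 0.19, adjusted p = 0.908), a value whose sign changed under several alternatives. Egfl6, of the same list, grew from -0.13 to -0.96, with -0.25 from KO16 alone. Sftpa1 and Sftpc were added after their values were seen. Sftpa1 had effects of -0.84 and -1.85 (interaction -1.01, -0.22 from KO16 alone), while Sftpc was 13.36 to 13.50 on all 12 arrays, near the top of the measured range. Of the 20 surfactant and type II cell genes, all were kept, 17 had an interaction below 0, and the median was -0.35, -0.49 without KO16 (13 called lower, 65%, against 38.6% of all genes) and -0.08 from KO16 alone. The list mean was -0.26, -0.25 and -0.10 on E18.5 ScapΔ/Δ arrays, -0.28 on KO16 and -0.75 and -0.78 on KO17 and KO18.

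Other epithelial and lipid lists are read against the 59.5% of all genes with an interaction below 0 and the median of -0.09, and the type I cell list was near that background. The background is not matched for level, and the brightest of the 4 level groups of probe sets had a median of -0.20. Phosphatidylcholine synthesis and remodeling had 17 of 19 genes below 0 (89.5%, median -0.33, from KO16 alone -0.01). In it Cept1, which joins choline to diacylglycerol, reversed from 0.19 to -0.27, and Pla2g4a, the cytosolic phospholipase that releases arachidonic acid, from 0.47 to -0.18. The airway epithelium list had 12 of 15 genes below 0 (80%, median -0.44, from KO16 alone -0.03), among them Aldh1a1, a retinoic acid synthesizing enzyme (0.10 and -0.87), and Sec14l3 (-0.10 and -0.54). The type I cell list had 9 of 14 below 0 (64.3%, median -0.14, from KO16 alone 0.07), with Rtkn2 at 0.09 and -0.34 and Vegfa, the endothelial growth factor, at -0.14 and 0.26. Of the epithelial transcription factors 14 of 19 were below 0 (73.7%, median -0.32, from KO16 alone -0.01), and Cebpd, which glucocorticoid induces, grew higher instead, from 0.11 to 0.56, with an interaction of 0.55 from KO16 alone and 0.40 without KO16.

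**Figure D3:**
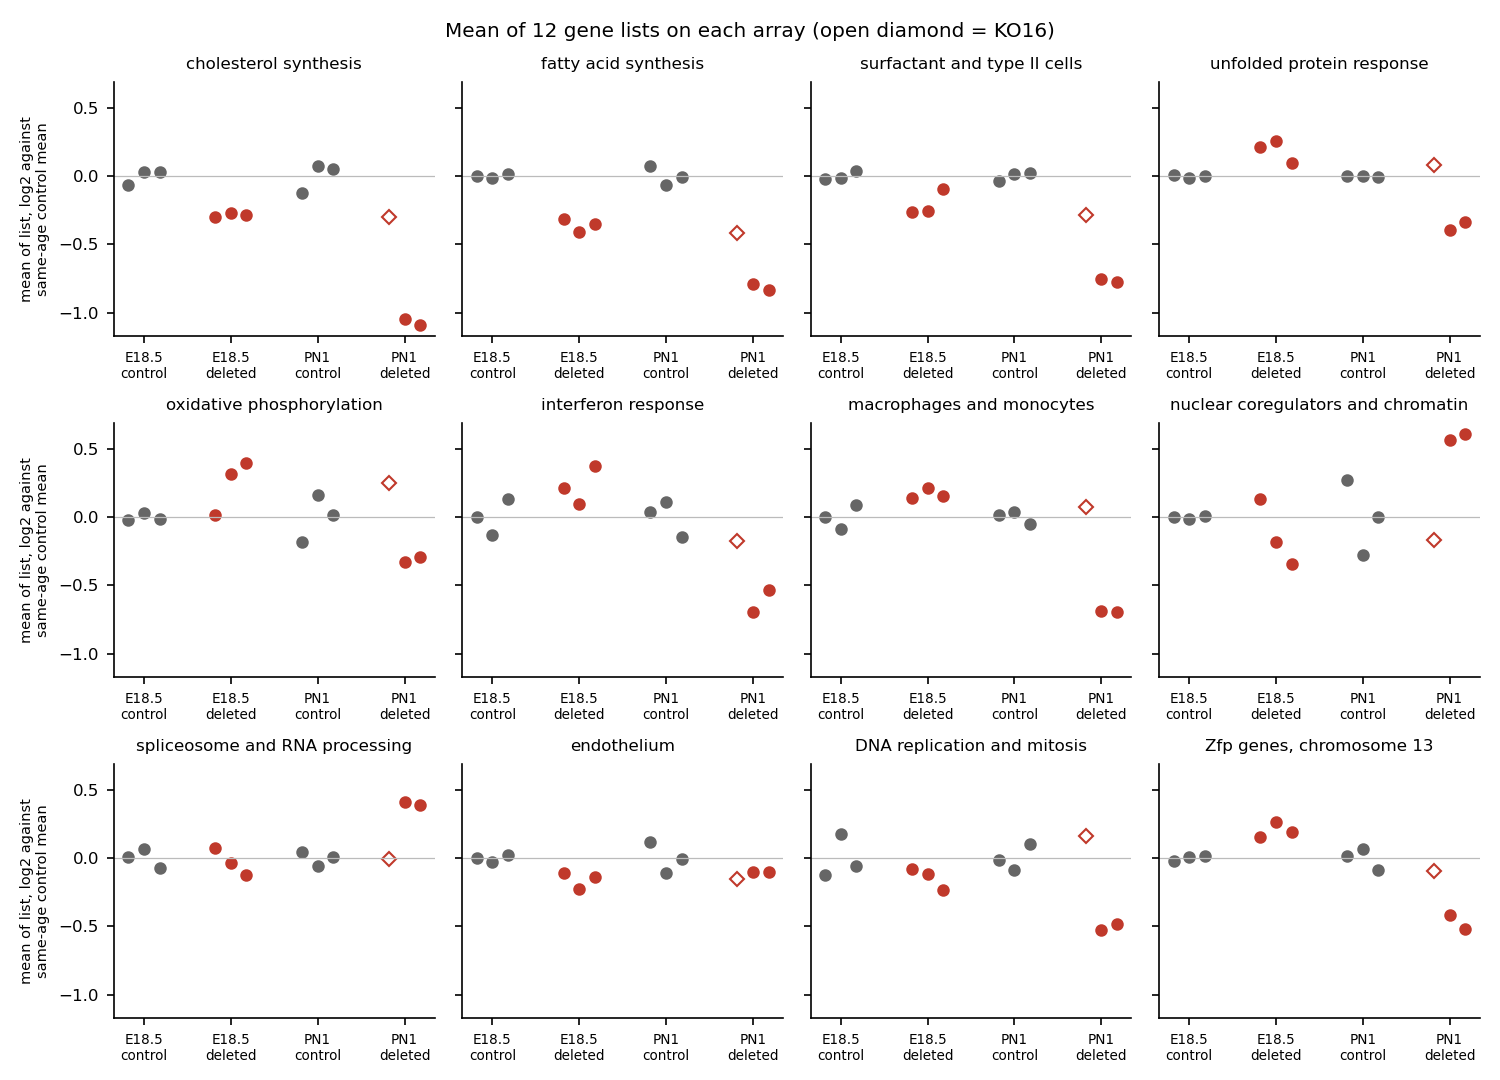
Mean of 12 gene lists on each array, as log2 against the mean of the same-age controls, with KO16 as an open diamond. KO16 lies near the E18.5 ScapΔ/Δ arrays in the cholesterol, fatty acid, surfactant, unfolded protein and oxidative phosphorylation lists, and KO17 and KO18 lie together and away from it in most panels. The Zfp genes were chosen after values were seen.

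Reversals from higher to lower included genes of signaling, muscle and inflammation. Ptgs2, the inducible prostaglandin synthase, was fixed in the list of genes that the study tied to age, and it had the largest reversal among the fixed genes. It lay at 7.79, 7.80 and 8.04 in E18.5 controls, 8.96, 8.86 and 8.55 in E18.5 ScapΔ/Δ, 8.58, 8.98 and 9.22 in PN1 controls and 8.59, 8.10 and 7.58 in PN1 ScapΔ/Δ. The E18.5 groups were well apart, while at PN1 KO16 reached the lowest control, so Ptgs2 is not among the strict reversals. Its effects were 0.91 and -0.83, and the interaction was -1.75 ± 0.34 (adjusted p = 0.265), -1.99 ± 0.27 (adjusted p = 0.00015) without KO16 and -1.25 from KO16 alone. From E18.5 to PN1 Ptgs2 was 1.05 higher in controls, whereas in ScapΔ/Δ lungs it changed by -0.70.

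Glp1r, the receptor for glucagon-like peptide 1, had an adjusted p of 0.265. It lay at 10.94, 10.69 and 10.88 in E18.5 controls, 11.45, 11.27 and 11.41 in E18.5 ScapΔ/Δ, 11.52, 11.06 and 11.23 in PN1 controls and 10.61, 10.94 and 10.68 in PN1 ScapΔ/Δ. All 3 E18.5 ScapΔ/Δ arrays were above, and all 3 PN1 ScapΔ/Δ arrays below, the controls of their age, with KO16 the lowest. The interaction was -1.06 ± 0.19, -0.997 ± 0.18 (adjusted p = 0.000955) without KO16 and -1.20 from KO16 alone, so that its size was close with either set of PN1 arrays. Pln, phospholamban, the inhibitor of the sarcoplasmic calcium pump, lay at 7.43, 7.39 and 7.50 in E18.5 controls, 7.67, 8.41 and 8.21 in E18.5 ScapΔ/Δ, 7.42, 7.05 and 6.95 in PN1 controls and 6.65, 6.45 and 6.54 in PN1 ScapΔ/Δ. The groups were apart at both ages and the 3 PN1 ScapΔ/Δ arrays were close to each other. Its interaction was -1.25 ± 0.25 (adjusted p = 0.265), -1.31 without KO16 (adjusted p = 0.00153) and -1.15 from KO16 alone. Pln is also a marker of cardiac muscle, whose list had 11 of 17 genes with an interaction below 0 and a median of -0.13. On that list the E18.5 ScapΔ/Δ arrays lay at 0.01, 0.37 and 0.18. KO16, KO17 and KO18 lay at -0.15, -0.44 and 0.22, so that KO18 fell within the E18.5 range. The median effect of the list was 0.16 at E18.5 and -0.11 at PN1, and 8 of 17 genes reversed to lower, against 4804 of all 15070 genes. The list mean ranked the E18.5 ScapΔ/Δ arrays as Pln did, but not the PN1 ScapΔ/Δ arrays. The part of heart tissue in the Pln values was not tested.

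Il1b, interleukin 1 beta, lay at 6.87, 6.49 and 6.79 in E18.5 controls, 6.95, 7.22 and 7.14 in E18.5 ScapΔ/Δ, 7.79, 8.03 and 7.998 in PN1 controls and 7.64, 7.17 and 6.82 in PN1 ScapΔ/Δ. Its controls were 1.22 higher at PN1 than at E18.5 and its ScapΔ/Δ lungs 0.11 higher. The interaction of Il1b was -1.12 ± 0.26 (adjusted p = 0.265), -1.34 without KO16 (adjusted p = 0.000199) and -0.68 from KO16 alone. Havcr2, the inhibitory receptor TIM-3, chosen after its values were seen, had the same form (0.33 and -0.68), with -0.58 from KO16 alone.

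Interferon and macrophage genes had the lowest median interactions of the lists. Irf1, an interferon-induced transcription factor, lay at 9.68, 9.61 and 9.71 in E18.5 controls, 9.90, 9.95 and 9.84 in E18.5 ScapΔ/Δ, 9.49, 9.49 and 9.46 in PN1 controls and 9.24, 8.76 and 8.73 in PN1 ScapΔ/Δ. Groups were apart at both ages and KO16 was between the PN1 controls and KO17 and KO18. The interaction of Irf1 was -0.80 ± 0.17 (adjusted p = 0.265), -0.96 without KO16 (adjusted p = 9.4e-06) and -0.46 from KO16 alone. Ifit3, an interferon-induced antiviral protein, lay at 6.77, 6.56 and 7.04 in E18.5 controls, 7.69, 7.55 and 8.002 in E18.5 ScapΔ/Δ, 8.08, 8.33 and 7.75 in PN1 controls and 8.06, 6.76 and 6.74 in PN1 ScapΔ/Δ. At PN1 KO16 sat among the controls. Its interaction of -1.82 ± 0.45 (adjusted p = 0.265) was -2.26 without KO16 (adjusted p = 4.17e-05) and -0.95 from KO16 alone. Ifih1, a sensor of viral RNA chosen after its values were seen, went from 0.22 to -0.33. Of 18 interferon genes kept of 24, 17 had an interaction below 0 with a median of -0.71, -0.90 without KO16 (13 called lower, 72.2%, against 38.6% of all genes) and -0.34 from KO16 alone, the lowest of the 29 lists in that array. The list mean was 0.21, 0.09 and 0.38 at E18.5, -0.17 on KO16 and -0.70 and -0.54 on KO17 and KO18, beside controls that spread from -0.15 to 0.14.

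Among macrophage and monocyte genes, Ccr2, the chemokine receptor of monocytes, went from 0.69 to -0.76 and Cd14, the lipopolysaccharide co-receptor, from 0.52 to -0.84. Ccr2 was 9.29 on KO16 but 7.85 and 7.59 on KO17 and KO18, against 8.84 to 9.16 in PN1 controls. With a PN1 effect of 0.29 on KO16, its interaction from that array alone was -0.40, and that of Cd14 was -0.61. The list had 18 of 21 genes below 0 with a median of -0.68, -0.99 without KO16 (15 called lower, 71.4%, against 38.6% of all genes) and -0.09 from KO16 alone, and its mean was 0.14, 0.21 and 0.16 at E18.5, 0.08 on KO16 and -0.69 and -0.69 on KO17 and KO18. Neutrophil genes had 10 of 15 below 0 (66.7%, against 59.5% of all genes) and a median of -0.43 (-0.01 from KO16 alone), with S100a8, an abundant calcium-binding protein of neutrophils, at 1.15 and -0.18 and Mmp8, their collagenase, at 0.26 and -0.65. S100a8 was highest of all on KO16 (10.44). Cd79b of B cells was 0.26 and -0.60, with 0.10 from KO16 alone, and Cd8a of T cells -0.13 and 0.14, in a lymphocyte list of which 6 of 18 genes were kept (median 0.04).

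The stress response, p53, oxidative phosphorylation and glycolysis lists had median interactions of -0.37 to -0.30, against -0.09 over all genes, while the proliferation, immediate early and ribosomal lists lay near that background, at -0.11 to -0.04. In the unfolded protein and integrated stress response, 25 of 26 genes had an interaction below 0 (median -0.34, from KO16 alone -0.04). Chac1, a glutathione-degrading enzyme induced by ATF4, was its member with the smallest p. It lay at 8.21, 8.20 and 8.30 in E18.5 controls, 8.82, 8.78 and 8.58 in E18.5 ScapΔ/Δ, 8.47, 8.50 and 8.30 in PN1 controls and 8.28, 8.32 and 8.11 in PN1 ScapΔ/Δ. The E18.5 groups were apart and the PN1 groups overlapped at C15 and KO17. The interaction was -0.67 ± 0.13 (adjusted p = 0.265), -0.70 without KO16 (adjusted p = 0.00111) and -0.63 from KO16 alone. Derl3, a component of endoplasmic reticulum associated degradation, shrank from 0.81 to 0.17, at 7.63, 7.70, 7.54 in E18.5 controls, 8.51, 8.50, 8.29 in E18.5 ScapΔ/Δ, 7.59, 7.48, 7.44 in PN1 controls and 7.77, 7.56, 7.69 in PN1 ScapΔ/Δ. Its interaction was -0.64 ± 0.13 (adjusted p = 0.265), -0.69 without KO16 and -0.55 from KO16 alone. For Chac1 and Derl3 the interaction was thus of similar size with either set of PN1 arrays. Gadd45a, a p53 target, reversed from 0.34 to -0.13 with -0.45 from KO16 alone and -0.48 without KO16, in a list with 15 of 17 genes below 0 (median -0.30, from KO16 alone -0.12), of which Plk2 went the other way (-0.16 and 0.26). Atf3 shrank from 0.62 to 0.02, with -0.21 from KO16 alone.

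Of the oxidative phosphorylation genes 68 of 71 had an interaction below 0, with a median of -0.37, -0.55 without KO16 (52 called lower, 73.2%, against 38.6% of all genes) and 0.01 from KO16 alone. Ndufab1, an acyl carrier protein of complex I, went from 0.28 to -0.47 and Sdhd, a membrane subunit of complex II, from 0.33 to -0.38. The list mean spread within groups, from -0.18 on C13 to 0.17 on C14 and from 0.02 on KO10 to 0.40 on KO12, and was 0.25 on KO16 and -0.33 and -0.29 on KO17 and KO18. Hypoxia and glycolysis genes had 20 of 25 below 0 (median -0.32, from KO16 alone 0.06). Aldoc, a brain-type aldolase, lay at 8.98 on KO16 and 7.33 and 7.76 on KO17 and KO18, and Ero1a, an endoplasmic reticulum oxidase, went from 0.19 to -0.29. DNA replication and mitosis genes had 27 of 36 below 0 (median -0.11), but the list lay at -0.34 without KO16 and at 0.32 from KO16 alone. Rfc4, a clamp loader subunit, was 10.57 on KO16 and 8.81 and 8.76 on KO17 and KO18, and Foxm1, a mitotic transcription factor, went from -0.39 to 0.12. Immediate early genes had a median of -0.04 with 12 of 22 below 0, and Egr2 went from 0.06 to -0.75. Ribosomal protein genes had 37 of 53 below 0 (median -0.08), while Rps15a grew higher (0.01 and 0.52) and Rps28 reversed to higher (-0.04 and 0.26), both with many processed copies in the genome that may share probes.

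Zinc finger genes named Zfp were noticed among the strict reversals to lower and were therefore counted after their values were seen. Most encode DNA-binding repressors that arose in clusters of paralogs, so that cross-hybridisation between neighbours is possible and was not tested. Zfp759 lay at 8.08, 8.11 and 8.29 in E18.5 controls, 8.52, 8.71 and 8.42 in E18.5 ScapΔ/Δ, 7.78, 7.88 and 7.55 in PN1 controls and 7.41, 6.78 and 6.58 in PN1 ScapΔ/Δ. All E18.5 ScapΔ/Δ arrays were above and all PN1 ScapΔ/Δ arrays below their controls. Its interaction was -1.20 ± 0.26 (adjusted p = 0.265), -1.44 without KO16 (adjusted p = 4.55e-05) and -0.71 from KO16 alone. Zfp719 (0.37 and -0.75) and Zfp763 (0.33 and -1.09) had interactions from KO16 alone of -0.73 and -0.66. Of 301 Zfp genes kept of 341, 25 (8.31%) reversed to lower on every array and 0 to higher. Of the other 14769 genes, 63 (0.427%) reversed to lower and 35 to higher, so 0 of 301 is near the background share. The median interaction of the Zfp genes was -0.18, -0.24 without KO16 and -0.12 from KO16 alone, against -0.09, -0.15 and 0.00 over all genes.

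The 28 Zfp genes kept on chromosome 13 were likewise singled out after their values were seen, and no other chromosome was counted. Strict reversals to lower were not particular to chromosome 13. They included Zfp719, Zfp583, Zfp667 and Zfp780b on chromosome 7 and Zfp563, Zfp763 and Zfp160 on chromosome 17. Of the 28 Zfp genes on chromosome 13, 24 had an interaction below 0, with a median of -0.55, -0.68 without KO16 and -0.29 from KO16 alone. Between Zfp708 and Zfp738, RefSeq lists 29 neighbouring genes, 18 of them Zfp genes, and 17 of these were kept. All 17 were higher in ScapΔ/Δ than in control at E18.5 (by 0.05 to 0.55) and lower at PN1 (by between -0.81 and -0.02), and 15 of the 17 were lower on KO16 (-0.35 to 0.10). By the same signs, 133 of the 301 Zfp genes and 4804 of all 15070 genes reversed to lower. The genes of the stretch without a Zfp name were not counted. Of the 17, 7 reversed on every array, against 8.31% of all Zfp genes kept and 0.584% of all genes. These 7 were Zfp708, Zfp759, Zfp457, Zfp595, Zfp456, Zfp58 and Zfp738. Both ends of the stretch are among the 7, so its limits came from the same values. Zfp595 was 7.73, 7.73 and 7.76 in E18.5 controls, 7.995, 8.08 and 7.87 in E18.5 ScapΔ/Δ, 7.45, 7.48 and 7.27 in PN1 controls and 7.05, 7.19 and 7.18 in PN1 ScapΔ/Δ. KO16 was the lowest array for Zfp595, and its interaction was -0.50 ± 0.12 (adjusted p = 0.265) and -0.59 from KO16 alone. Zfp58 lay at 7.86, 6.94 and 7.13 on KO16, KO17 and KO18 against 8.14, 8.18 and 7.95 in PN1 controls. Rsl1, a zinc finger repressor of sex-limited liver genes in the same stretch, was chosen after its values were seen. Its effects were 0.22 at E18.5 and -0.82 at PN1, with an interaction of -0.54 from KO16 alone. The per-array mean of the chromosome 13 genes was 0.16, 0.26 and 0.19 at E18.5, -0.09 on KO16, which equalled C15 (-0.09), and -0.42 and -0.52 on KO17 and KO18.

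**Figure D4:**
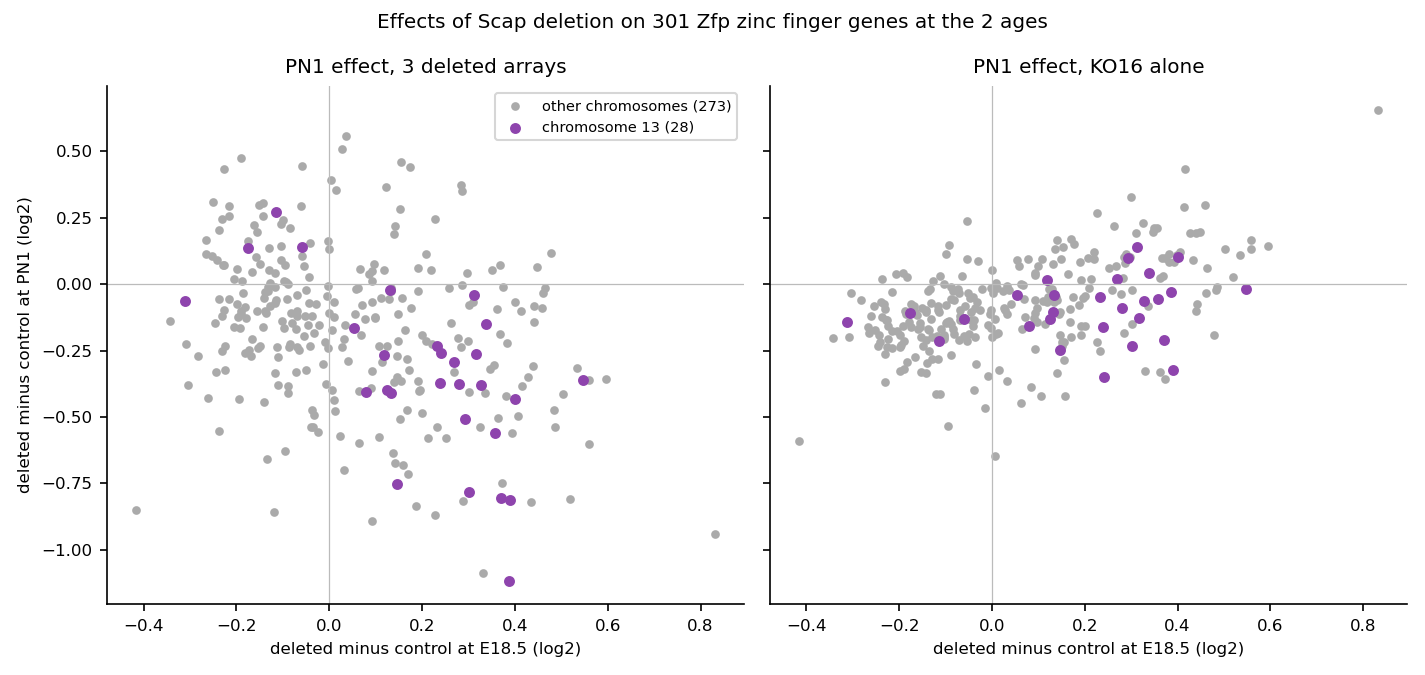
Effect of Scap deletion at E18.5 (horizontal axis, log2) and at PN1 (vertical axis, log2) for 301 Zfp genes, 1 point per gene, with the 28 on chromosome 13 in purple. With 3 PN1 ScapΔ/Δ arrays (left) most chromosome 13 genes lie right of and below 0, and with KO16 alone (right) they lie nearer to 0.

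Among reversals to higher with an interaction of 1 or more and a named gene, those with the smallest p were Wnk1, Per1, Adgrl2, Snord95 and Tra2a, and each was larger without KO16 than from KO16 alone. Wnk1, a kinase that controls ion transport, lay at 8.07, 8.17 and 8.07 in E18.5 controls, 7.99, 8.06 and 7.65 in E18.5 ScapΔ/Δ, 8.16, 7.79 and 8.25 in PN1 controls and 8.32, 10.52 and 10.88 in PN1 ScapΔ/Δ. The groups were apart at both ages by small margins, and KO17 and KO18 were more than 2 log2 units above KO16. The interaction of Wnk1 was 2.05 ± 0.72 (adjusted p = 0.265), 2.84 without KO16 (adjusted p = 6.29e-06) and 0.46 from KO16 alone. Tra2a, a splicing regulator (-0.15 and 1.54), Per1, the clock gene that glucocorticoid induces (-0.25 and 1.22), and Adgrl2, an adhesion receptor (-0.35 and 0.91), had interactions of 0.48, 0.60 and 0.65 from KO16 alone and 2.29, 1.91 and 1.57 without KO16. Snrnp70, of the U1 small nuclear ribonucleoprotein, was 9.75 on KO16, within the PN1 controls (9.67 to 9.88), and 11.13 and 11.17 on KO17 and KO18, and Pnisr was 9.18, 10.13 and 10.19. Of the spliceosome and RNA processing list 21 of 27 genes had an interaction above 0 (median 0.28, without KO16 0.39, from KO16 alone 0.03).

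Nuclear coregulators and chromatin genes had 25 of 26 above 0 with a median of 0.43, 0.65 without KO16 (16 called higher, 61.5%, against 17.8% of all genes) and -0.03 from KO16 alone. Crebbp, the CREB-binding histone acetyltransferase, lay at 10.81, 10.75 and 10.74 in E18.5 controls, 10.85, 10.50 and 10.37 in E18.5 ScapΔ/Δ, 10.90, 10.20 and 10.54 in PN1 controls and 10.35, 11.38 and 11.39 in PN1 ScapΔ/Δ. KO16 lay within the PN1 controls and KO17 and KO18 above them, and the PN1 controls themselves spread over 0.7 log2 units from C14 to C13. The interaction of Crebbp was 0.69 ± 0.38 (adjusted p = 0.273), 1.03 without KO16 (adjusted p = 0.00427) and -0.01 from KO16 alone. Ncoa2, a steroid receptor coactivator (interaction 0.38, -0.07 from KO16 alone), Kmt2d, a histone methyltransferase (0.999 and 0.09), and Chd7, a chromatin remodeler (0.72 and 0.06), had the same dependence. The list mean was 0.27 on C13, -0.28 on C14, 0.14 on KO10, -0.35 on KO12, -0.16 on KO16 and 0.57 and 0.61 on KO17 and KO18, so it varied among replicates of every group except the E18.5 controls. Pou2f1, also named by the study, had no probe set kept with 1 symbol.

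The study picked its Wnt and glucocorticoid receptor genes from its own Scap arrays, mainly at E17.5, and those arrays were not analysed here. It also measured Wnt genes by qPCR in lung at E17.5 and PN1 and after Scap knockdown in a lung epithelial cell line. Their values at the later ages were known to the study too, so their direction is not taken as independent evidence. Among Wnt genes 14 of 22 had an interaction above 0 (median 0.09, from KO16 alone 0.02). Fzd4, a Frizzled receptor, went from -0.24 to 0.23 (interaction 0.47 ± 0.25, adjusted p = 0.269) and was 0.09 from KO16 alone. Apc, of the beta-catenin destruction complex, went from -0.11 to 0.33 but had an interaction of -0.13 from KO16 alone, and Gsk3b, the kinase of that complex, went from -0.20 to 0.01 with 0.01 from KO16 alone. Fzd1 (-0.19 and -0.28) and Fzd2 (-0.24 and -0.44) did not reverse, and from KO16 alone their interactions were 0.06 and 0.18. By qPCR at PN1 the study reported small increases of Apc, Fzd1, Fzd2, Fzd4 and Gsk3b in ScapΔ/Δ lungs. The array values of Fzd1 and Fzd2 thus had the other direction, and that of Gsk3b was near 0. On KO16 the PN1 effects of Apc, Fzd1, Fzd2, Fzd4 and Gsk3b were -0.25, -0.13, -0.05, -0.15 and -0.19. From KO17 and KO18 they were 0.62, -0.35, -0.63, 0.41 and 0.10. Cdh4 (-0.28 and 0.07) and Rarb (-0.01 and -0.61) were the list's members with the smallest p. The glucocorticoid receptor list had 18 of 29 above 0 (median 0.08, from KO16 alone -0.02) with Ptgs2 and Mapk10 (0.10 and -0.53) below, and the separate list of glucocorticoid induced genes had 10 of 17 above 0 (median 0.04).

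**Figure D5:**
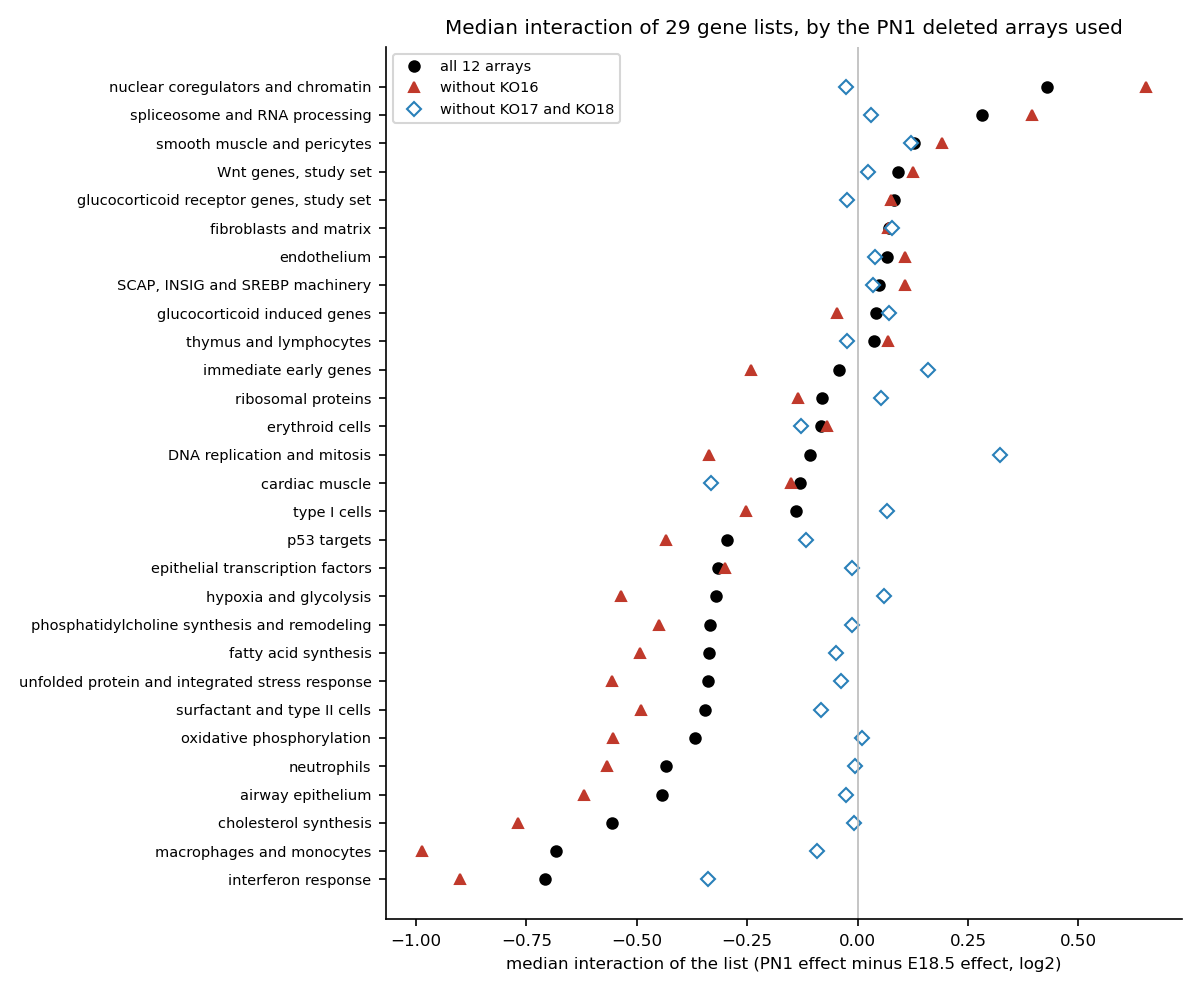
Median interaction (log2) of 29 gene lists with all 12 arrays (black), without KO16 (red triangles) and without KO17 and KO18 (open diamonds). Without KO17 and KO18 the medians lie between -0.34 (interferon response) and 0.32 (DNA replication and mitosis), and most are near 0.

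Genes that grew higher included small nucleolar RNAs, which guide the modification of ribosomal RNA and are excised from introns. Snora33 lay at 6.72, 6.77 and 6.76 in E18.5 controls, 7.05, 7.48 and 7.60 in E18.5 ScapΔ/Δ, 6.65, 6.68 and 6.47 in PN1 controls and 7.25, 10.38 and 10.50 in PN1 ScapΔ/Δ. It was above the controls on all 6 ScapΔ/Δ arrays, and KO16 matched the E18.5 ScapΔ/Δ arrays. Its interaction of 2.15 ± 0.94 (adjusted p = 0.265) was 3.21 without KO16 (adjusted p = 2.07e-06) and 0.03 from KO16 alone. Snora69 grew from 0.33 to 1.67 and Snord95 reversed from -0.08 to 1.47, with interactions of 0.22 and 0.57 from KO16 alone. Counted after values were seen, 35 of 39 snoRNA genes kept had an interaction above 0 (median 0.47, without KO16 0.74, from KO16 alone 0.01), against 6101 of all 15070 genes. Of the 39, 18 were higher than the controls on every array at both ages, against 124 of all 15070 genes. The list mean was 0.12, 0.51 and 0.62 at E18.5, 0.40 on KO16 and 1.24 and 1.15 on KO17 and KO18. The 3 probe sets of Hmcn1, an extracellular matrix protein, had interactions of 1.19 to 1.49, and 0.11 to 0.22 from KO16 alone. Among the genes that grew lower, Uprt on both of its probe sets (-1.23 and -1.51) and Vsnl1, a neuronal calcium sensor (-1.14), lay near the controls on KO16, with -0.25, -0.16 and -0.36 from that array alone. Nipal1, a magnesium transporter, and Kcnj2, an inward rectifier potassium channel, were lower on all 3 PN1 ScapΔ/Δ arrays. Nipal1 lay at 8.52, 8.58 and 8.52 in PN1 controls and 7.75, 7.21 and 7.14 in PN1 ScapΔ/Δ (interaction -1.07 ± 0.24, adjusted p = 0.265, from KO16 alone -0.69), and Kcnj2 at 8.30, 7.40 and 8.13 against 7.07, 6.31 and 6.29 (interaction -1.14 ± 0.34, from KO16 alone -0.63).

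Of the 6 strict reversals to higher that are named, Wnk1 is given above and the others had interactions of 0.37 to 0.62. Htr2a, the serotonin 2A receptor, had the largest smaller effect of the 6. It lay at 7.96, 8.02 and 8.06 in E18.5 controls, 7.76, 7.73 and 7.80 in E18.5 ScapΔ/Δ, 8.52, 8.74 and 8.91 in PN1 controls and 9.03, 9.04 and 9.22 in PN1 ScapΔ/Δ. The 3 PN1 ScapΔ/Δ arrays were close together and above the controls. The interaction was 0.62 ± 0.14 (adjusted p = 0.265), 0.66 without KO16 (adjusted p = 0.00217) and 0.56 from KO16 alone, and the level was 0.71 higher at PN1 than at E18.5 in controls and 1.33 higher in ScapΔ/Δ lungs. Kcna10, a potassium channel, Lrrc52, an auxiliary channel subunit, Olfr398, an olfactory receptor, and Lrtm1 were low on every array, between 6.75 and 7.82, with interactions of 0.47, 0.44, 0.51 and 0.37. On KO16 these 4 genes were at most 0.07 above the PN1 control mean, while the dimmest of the 4 level groups lay 0.11 and 0.13 above it on KO17 and KO18.

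Endothelial, fibroblast, smooth muscle and erythroid lists had median interactions between -0.08 and 0.13. Endothelial genes had 11 of 20 above 0 (median 0.07), with Car4, a carbonic anhydrase of capillaries, reversing to lower (0.30 and -0.43) and Nos3, the endothelial nitric oxide synthase, to higher (-0.28 and 0.10, with 0.21 from KO16 alone). Fibroblast and matrix genes had 13 of 19 above 0 (median 0.07), but the proteoglycans Lum (0.48 and -0.72) and Dcn (0.04 and -0.62) were lower on all 3 PN1 ScapΔ/Δ arrays relative to the control mean, with interactions of -0.91 and -0.40 from KO16 alone. Smooth muscle and pericyte genes had 12 of 18 above 0 (median 0.13), with Kcnj8, a pericyte potassium channel, at 0.15 and -0.82 and Smtn, smoothelin, at -0.36 and 0.03. Nppb of cardiac muscle went from -0.08 to 0.27. Of 20 erythroid genes 9 were kept (median -0.08), and Alas2, of heme synthesis, went from 0.05 to -0.40 and Slc4a1, the band 3 anion exchanger, from -0.22 to -0.75. None of these interactions passed the adjusted threshold with 12 arrays (limma, adjusted p at or above 0.265).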

How the data were processed

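Whole lung RNA had been hybridised by the authors to Affymetrix Mouse Gene 1.0 ST arrays, and the deposited series values are log2 expression per probe set, already normalized by the authors. The 12 Scap arrays at E18.5 and PN1 were used, and the 6 Insig arrays entered only 1 alternative. Other arrays of the study were not analysed here. A probe set was kept if its value reached the array's 35th percentile on at least 66% of the 12 arrays (22800 of 35556), and 21789 probe sets carried 1 gene symbol. 1 mean per group was fitted with limma 3.58.1 in R 4.3.3 (lmFit, eBayes), and Benjamini-Hochberg adjustment ran over all probe sets kept. With 1 array left in PN1 ScapΔ/Δ, it was assumed to vary like the other groups. For lists, the probe set with the highest mean stood for a gene. Named genes were 27 fixed genes, 5 per class by smallest p among interactions of 1 or more in size, 6 per direction among strict reversals, and 2 per list, passing over Gm and Rik symbols among classes and strict reversals. Members and lists were chosen with earlier results of these data known. The fit was tested on simulated data in which all 4 groups had the same spread. The PN1 ScapΔ/Δ arrays spread more widely than the others, so the simulation cannot vouch for the fit in that respect. The number of arrays limits precision, and p-values measure the spread between arrays labelled as replicates. Chromosome and neighbourhood come from RefSeq GRCm38.p6, used for names and promoters only.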

Additional observations from a re-analysis of the deposited data

Results flagged for a closer look

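In 12 genes every ScapΔ/Δ array moved one way against the controls at E18.5 and the other way at PN1, while the interaction test did not pass adjustment (limma, adjusted p = 0.265 for each). To lower, the interactions were -1.06 for Glp1r, -1.25 for Pln, -1.12 for Il1b, -1.12 for Zfp719, -1.20 for Zfp759 and -1.42 for Zfp763. To higher, they were 0.62 for Htr2a, 2.05 for Wnk1, 0.47 for Kcna10, 0.44 for Lrrc52, 0.51 for Olfr398 and 0.37 for Lrtm1. Among all probe sets, 0.421% reversed to higher and 0.478% to lower in this way. From KO16 alone Glp1r (-1.20), Pln (-1.15) and Htr2a (0.56) kept most of their size, and Wnk1 (0.46) did not.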

How the results depend on the processing

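No paired analysis was possible because array numbers are not shared between groups. The interaction calls were 0 without the filter, with the filter at the 50th percentile, and under quantile normalization, median centring, a trended or robust spread, an unmoderated two-way analysis of variance, the threshold of the methods, all 18 arrays, and sex read from Xist and Y-linked genes as a covariate, which was chosen after seeing the data. Array weights gave 6338 higher and 8347 lower, with a weight of 0.0489 for KO16 and 10.1 for KO17. Leaving out 1 array at a time gave 0 to 5687 calls higher and 0 to 7609 lower, all of them without KO16. Median centring moved the median interaction of all probe sets from -0.03 to -0.21. Strict reversals to higher numbered 226 without a filter, 47 at the 50th percentile and 52 after median centring. Without KO17 and KO18 they numbered 238 and those to lower 182, and leaving out 1 array gave 101 to 1929 to higher and 115 to 2178 to lower, the most again without KO16, where 2 arrays in place of 3 make non-overlap easier. Of 101 named probe sets, 89 kept the direction of the interaction under every alternative that gave them a value. The others included interactions of -0.86 (Cd79b), 0.69 (Crebbp), 0.45 (Apc), -0.44 (Pcyt1a) and 0.38 (Ncoa2) with 12 arrays. The 50th percentile filter gave values for 85 of the 101. The spread settings, the analysis of variance and the 18-array fit cannot change the interaction value. Most named genes were picked by the size or p of this same interaction, so the 89 are no test of direction. The values of opposite sign were 0.12 (Abca3), 0.057 (Fzd1) and 0.061 (Insig1) under quantile normalization, -0.022 (Fasn), -0.053 (Scap) and -0.023 (Srebf2) under median centring, 0.066 (Abca3) with array weights and 0.019 (Abca3) with sex. Without KO17 and KO18 they were -0.13 (Apc), 0.10 (Cd79b), -0.0061 (Crebbp), -0.050 (Fasn), 0.058 (Fzd1), 0.18 (Fzd2), 0.23 (Insig1), -0.075 (Ncoa2) and 0.18 (Pcyt1a). With 1 array left out they ran from -0.15 to 0.11 for Abca3, -0.019 to 0.30 for Fasn, -0.16 to 0.014 for Fzd1 and -0.24 to 0.011 for Insig1. The cause of these changes was not tested.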
